A study of Mus musculus with 24 samples.

Results

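The genes described here encode the mitochondrial respiratory chain and the ATP synthase. They were chosen by symbol from the protein-coding genes of GENCODE release M21: every symbol that starts with Nduf, Uqcr, Atp5, Cox4, Cox5, Cox6, Cox7, Cox8 or mt-, and Sdha, Sdhb, Sdhc, Sdhd, Cyc1, Cycs and Cyct. That gave 110 of the 55536 genes in the count table, of which 97 are nuclear and 13 are encoded in the mitochondrial genome. By symbol, 38 genes belong to complex I, 8 are Ndufaf assembly factors of complex I, 4 belong to complex II, 9 to complex III, 2 are cytochromes c, 18 belong to complex IV and 18 to the ATP synthase. Poly(A) RNA was sequenced from 2 germ cell fractions of mouse testis, pachytene/diplotene spermatocytes (SP) and round spermatids (RS), which were enriched on a bovine serum albumin gradient from testes of 2 to 5 pooled males aged 10 to 15 weeks. The males were on a C57BL/6J background and were Ago413+/+ (wild type), Ago413+/- (heterozygous) or Ago413-/- (null). The Ago413 allele is constitutive, in every cell of the animal and not in germ cells alone. It takes out the whole of Ago1 and part of each of its neighbours on chromosome 4, Ago3 and Ago4, genes of the Argonaute family that bind small RNAs. The fractions were enriched rather than pure, with a minimum purity of 70% per the labels and a higher one for round spermatids per the study's methods, so that in these bulk samples fewer cells of a type and less RNA per cell cannot be told apart. The labels mark 3 libraries as outliers, and these were set aside. That left 10 spermatocyte libraries (4 wild type, 3 heterozygous, 3 null) and 11 of round spermatids (3 wild type, 4 heterozygous, 4 null).

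Complexes I and II feed electrons from NADH and succinate into ubiquinone, complex III passes them to cytochrome c, complex IV hands them to oxygen, and the ATP synthase uses the proton gradient built on the way. Nuclear genes encode most of the subunits, and the mitochondrial genome encodes a small core of complexes I, III, IV and the ATP synthase. Male germ cells replace several somatic subunits with testis-specific ones, among them cytochrome c itself (Cyct in place of Cycs) and the complex IV subunits Cox6b2, Cox7b2 and Cox8c (in place of Cox6b1, Cox7b and Cox8a).

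The 21 libraries held 12825105 to 29749058 counts each. Ago1 was at 0 CPM (counts scaled to library size) in every null library and at 1.71 to 4.49 CPM in the other 14. All 10 elongating spermatid markers were called higher in wild-type round spermatids, with summed levels of 30360 to 43150 CPM against 5336 to 11560 CPM in spermatocytes. The study's methods use Prm1 and Tnp1, which are among them, for round spermatid stages too. The list therefore does not mark elongating spermatids alone. Of the 10 spermatocyte markers, 6 were called lower. The 10 round spermatid markers were all positive and 2 were called higher, but their sums overlapped (1162 to 1773 CPM against 891.6 to 1618 CPM in spermatocytes). Macrophage markers, 6 of 10 called higher, summed to 36.24 to 56.18 CPM in wild-type round spermatids against 14.01 to 20.61 CPM. The part of these markers in the differences between the fractions was not tested. Libraries that stand apart matter for the genes described here. Heterozygous spermatocyte replicate 3 was shifted towards short genes: its median log2 deviation was 1.03 higher for protein-coding genes under 1000 bases of exon than for those over 4000, against -0.74 to 0.38 in the other spermatocyte libraries used. The nuclear respiratory genes had a median exon length of 1696.5 bases against 4199 for all protein-coding genes tested. Their summed level in that library, 12260 CPM, was the highest of all. The part of the shift in that level was not tested. Wild-type spermatocyte replicate 3, one of the left-out libraries, had a summed level of 6528 CPM, inside the null range of 6437 to 7400 CPM, and carried fewer spermatocyte marker counts (573.4 CPM) and more elongating spermatid marker counts (20890 CPM) than any wild-type spermatocyte library used.

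Within the nuclear set, Cox8c had the highest level per kilobase of exon in both wild-type fractions. Levels between genes are compared here as CPM per kilobase of merged exons, to allow for gene length. That length takes in every annotated transcript of a gene, and was 458 bases for Cox8c and 3404 for Cycs. It can be longer than the mRNA in the cells, so ranks and gaps between genes are approximate. In wild-type spermatocytes the highest nuclear genes were Cox8c at 937, Cox7b2 at 288 and Cox4i1 at 250 CPM per kilobase, all subunits of complex IV, the last one its ubiquitous regulatory subunit. In wild-type round spermatids Cox8c at 654 came before Cox7a2 at 217 and Cox4i1 at 181 CPM per kilobase. The testis isoform Cyct stood at 140 and 86.1 CPM per kilobase, below several ubiquitous subunits in both fractions. The somatic counterparts were low in the same libraries. Cox8a, the counterpart of Cox8c, stood at 7.03 CPM per kilobase in wild-type spermatocytes and 10.9 in wild-type round spermatids, and Cox7b, the X-linked counterpart of Cox7b2, at 0.414 and 1.16. Cox6b2, which binds cytochrome c on complex IV, stood at 202 and 150 CPM per kilobase, above its counterpart Cox6b1 at 16.3 and 16.9. In each of the 4 pairs the lowest library of the testis isoform lay above the highest library of the somatic gene, in both fractions and all 3 genotypes.

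**Figure D1:**
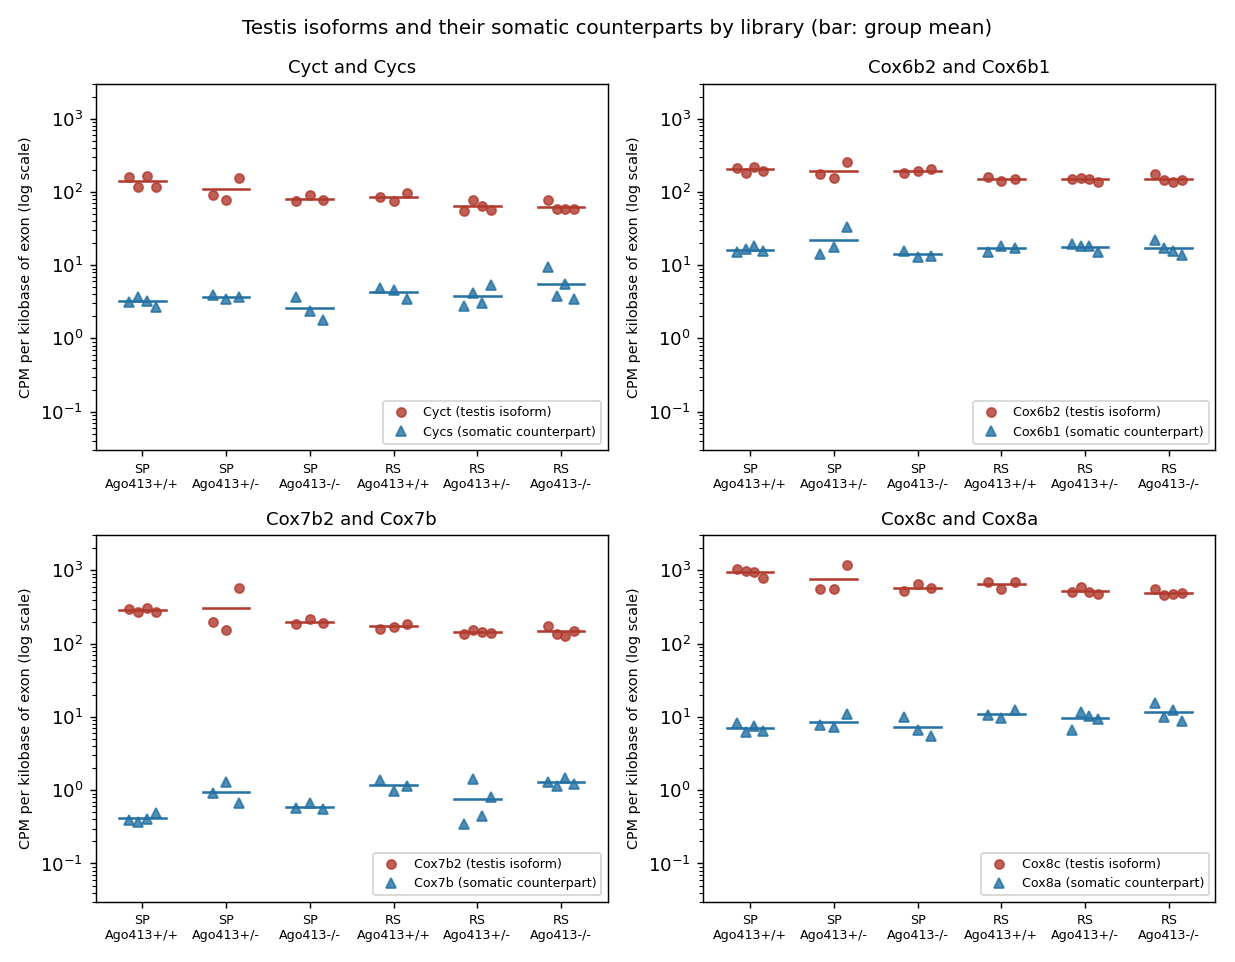
Level of each testis isoform (red circles) and its somatic counterpart (blue triangles) in the 21 libraries used, in CPM per kilobase of exon on a log scale, by fraction and genotype, with a bar at the group mean. The testis isoform lies above its counterpart in every library, with group means in wild-type spermatocytes of 937 against 7.03 for Cox8c and Cox8a, 288 against 0.414 for Cox7b2 and Cox7b, 202 against 16.3 for Cox6b2 and Cox6b1, and 140 against 3.21 for Cyct and Cycs.

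Cyct and Cycs show the change of isoform in the carrier that links complexes III and IV. Cyct (chr2:76353942-76360450, minus strand, mm10) was at 105.1, 77.08, 108.7 and 75.73 CPM in the wild-type spermatocyte libraries and at 55.52, 49.71 and 63.86 CPM in wild-type round spermatids. Cycs (chr6:50562563-50566538, minus strand) was at 10.8, 12.57, 11.1 and 9.25 CPM in the spermatocytes and at 16.44, 15.64 and 11.78 CPM in the round spermatids. Every wild-type spermatocyte library used was above every wild-type round spermatid library used for Cyct, while the Cycs libraries overlapped between the fractions. Of the words of 31 bases in the Cycs transcripts 29.4% occur in other genes as well, and none of those of Cyct, so the level of Cycs may be low by an unknown amount. Their upstream sequences are shown because the somatic gene carries motifs that the testis gene lacks: the cAMP response element TGACGTCA and the core CGCATGCG of the nuclear respiratory factor 1 (NRF1) motif, both in capitals. The 250 bases before each start, 5′ to 3′ on the gene's strand, are from RefSeq (GRCm38.p6).
Cycs (chr6:50566570-50566819, minus strand): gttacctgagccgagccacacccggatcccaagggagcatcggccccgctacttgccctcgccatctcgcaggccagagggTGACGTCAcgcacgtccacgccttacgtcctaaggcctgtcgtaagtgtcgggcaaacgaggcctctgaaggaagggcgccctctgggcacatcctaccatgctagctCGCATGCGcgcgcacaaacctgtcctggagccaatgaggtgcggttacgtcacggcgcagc
Cyct (chr2:76360454-76360703, minus strand): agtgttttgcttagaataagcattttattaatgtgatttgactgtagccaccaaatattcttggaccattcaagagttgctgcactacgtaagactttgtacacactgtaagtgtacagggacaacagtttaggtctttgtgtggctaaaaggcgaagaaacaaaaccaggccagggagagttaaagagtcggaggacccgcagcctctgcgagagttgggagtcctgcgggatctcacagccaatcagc
Neither motif, read on both strands, occurred in the Cyct window, which says only that these letters are not in it.

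Start windows (250 bases before to 50 after the start) were at hand for 77 of the 97 nuclear genes, with Cox8c among those without one. The NRF1 core CGCATGCG was in 12 of the 77 windows, 15.6%, against 478 of the 16522 windows of protein-coding genes, 2.89%. The stricter palindrome, that core with a G before it and a C after it, was in 7 windows, 9.09% against 1.53%, and the 12 genes with the core include these 7. The cAMP response element was in 5 windows (Ndufa10, Ndufa11, Ndufb2, Uqcrfs1 and Cycs), 6.49% against 2.64%. The core search was added after the palindrome had been counted, and no test was made of these shares. The genes with the core were spread over the complexes: the ATP synthase genes Atp5g2, Atp5j, Atp5k and Atp5l, the complex I genes Ndufa8 and Ndufa11, the assembly factors Ndufaf4 and Ndufaf5, the complex III genes Uqcr11 and Uqcrc1, Cox6a1 and Cycs. One stretch for each of 5 roles is shown, with the core in capitals.
Ndufa8 (chr2:36049324-36049363, minus strand): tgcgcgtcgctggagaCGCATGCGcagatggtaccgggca
Ndufaf4 (chr4:24897955-24897994, plus strand): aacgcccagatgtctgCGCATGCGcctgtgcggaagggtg
Uqcr11 (chr10:80406803-80406842, minus strand): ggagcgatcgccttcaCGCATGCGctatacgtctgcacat
Cox6a1 (chr5:115349096-115349135, minus strand): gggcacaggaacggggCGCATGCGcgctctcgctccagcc
Atp5k (chr5:108434425-108434464, minus strand): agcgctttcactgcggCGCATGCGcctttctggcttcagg

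Among the 13 mitochondrial genes, mt-Co1, the catalytic subunit of complex IV, was highest with 1976 CPM per kilobase in wild-type spermatocytes. The complex I subunit mt-Nd1 followed at 666, the complex III subunit mt-Cytb at 635, and mt-Nd2, mt-Nd4 and mt-Nd5 at 286, 198 and 183 CPM per kilobase. At the other end mt-Co2 and mt-Co3, which belong to the same enzyme as mt-Co1, were at 4.14 and 2.15 CPM per kilobase, the ATP synthase subunit mt-Atp6 at 1.52, and mt-Nd3 and mt-Nd4l at 0.655 and 0.067. These 5 low genes are those with nearly all of their transcript sequence in other annotated genes. Of the words of 31 bases in their transcripts, 98.1% to 100% occur in another annotated gene, for mt-Co2 and mt-Co3 the nuclear pseudogenes Gm28661 and Gm28437. The counts were made with reads that map to 1 place only, so the levels of these 5 genes are uncertain and may be far too low. mt-Atp8 was also low, at 0.356 CPM per kilobase with 7.47% of its words shared, mainly with mt-Atp6. mt-Nd6, the 1 gene on the other strand, was at 20.3 with 7.36%. Only annotated transcripts were searched, so copies in unannotated stretches of the genome would be missed. mt-Co1 and mt-Nd4 share 63.9% and 62.8% of their words, so their levels may be low by an unknown amount.

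**Figure D2:**
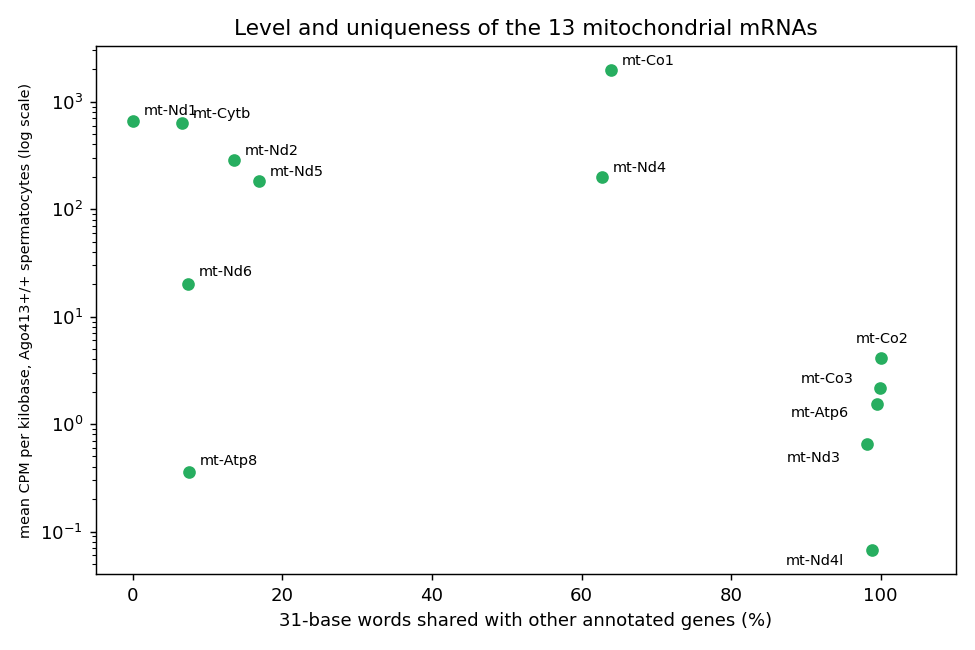
Mean level of the 13 mitochondrial mRNAs in wild-type spermatocytes (CPM per kilobase, log scale) against the percent of their 31-base words found in other annotated genes. The 5 genes at 98.1% or more lie between 0.067 and 4.14 CPM per kilobase, and mt-Co1 at 63.9% is highest at 1976.

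The mitochondrial mRNAs took a small share of the counts. This share may be too low, because reads that map to more than 1 place were not counted. The share was 0.569% ± 0.206 (SD, n = 4) in wild-type spermatocytes and 0.709% ± 0.107 (SD, n = 3) in wild-type round spermatids, and the libraries overlapped, since the spermatocyte libraries ran from 0.332% to 0.833%. The null had 0.447% ± 0.107 (SD, n = 3) in its spermatocytes and, in its round spermatids, 0.636% ± 0.108 (SD, n = 4). In both fractions the null libraries overlapped with the wild-type ones.

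The first comparison asked how the genes differ between round spermatids and spermatocytes of the wild type. A gene was called when its adjusted p in edgeR's quasi-likelihood test, with Benjamini-Hochberg adjustment over all 20404 genes tested, was below 0.05 and its log2 fold change was above 0.5 in size. Of the 97 nuclear genes, 92 had 10 counts in at least 3 libraries and were tested, as were 11 of the 13 mitochondrial ones. Round spermatids carried 8 nuclear genes at called lower and 2 at called higher levels, against a background of 11.4% and 12.7% of all genes tested. By counts alone this is no excess over the background. In level, the round spermatid libraries lay wholly below the spermatocyte libraries for 26 of the 92 nuclear genes (16.4% of all genes) and wholly above for 5 (17.3% of all genes). The median log2 fold change was -0.21 over the nuclear genes and 0.02 over all genes tested, and 16 of 92 were positive. These counts rest on the left-out libraries: with them added back no nuclear gene was called, nor any of all 20542 genes then tested (0%), and none was free of overlap in either direction, against 1.29% of all genes above and 1.09% below.

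In complex II, 3 of the 4 genes were called lower. Its catalytic subunit Sdha was at 208.7, 195.3, 214 and 149.4 CPM in wild-type spermatocytes and at 135.4, 120.7 and 131.2 CPM in wild-type round spermatids. All round spermatid libraries were below all spermatocyte libraries for Sdha (log2 fold change -0.57, SE 0.14, adjusted p = 0.00504 by edgeR). The membrane anchors Sdhc and Sdhd, which hold ubiquinone and heme, fell by 0.73 and 0.68 on the log2 scale (edgeR adjusted p = 0.00577 and 0.0234), with overlap at the lowest spermatocyte library, replicate 5. The iron-sulfur subunit Sdhb was tested and not called.

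In complex I, the membrane-arm subunit Ndufc2 was at 34.46, 29.17, 32.82 and 16.96 CPM in spermatocytes and 14.73, 11.33 and 12.95 CPM in round spermatids, without overlap. With an SE of 0.24 and an edgeR adjusted p of 0.00198, its log2 fold change of -1.12 was the lowest among the nuclear genes. Its assembly factors Ndufaf7, an arginine methyltransferase, and Ndufaf3 fell by 0.74 and 0.65 on the log2 scale (edgeR adjusted p = 0.00156 and 0.0042). Ndufa13, the subunit also known as GRIM-19, went the other way with 114.8, 82.64 and 130.7 CPM in round spermatids against 55.76 to 77.36 CPM in spermatocytes (log2 fold change 0.71, SE 0.25, edgeR adjusted p = 0.0392). Tssk6, a kinase gene of spermatids, overlaps it and holds most of the 33.2% of its words that occur elsewhere, so part of its counts is uncertain.

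In complex III, the core subunit Uqcrc2 was called lower (log2 fold change -0.88, SE 0.21, edgeR adjusted p = 0.00424), and 18.5% of its words are shared with its neighbour Pdzd9. The other 8 complex III genes were not called, and all 9 had a negative fold change. The edgeR adjusted p of Cyct was 0.0149, and its log2 value fell by 0.70 with an SE of 0.21. In complex IV the only call was Cox7b, higher in round spermatids with 1.67, 1.18 and 1.38 CPM against 0.446 to 0.596 CPM (log2 fold change 1.46, SE 0.38, edgeR adjusted p = 0.00792). These are low levels, where 3 counts are worth 0.0941 to 0.223 CPM. No ATP synthase gene and no mitochondrial gene was called. The 11 mitochondrial genes tested had a median log2 fold change of 0.24, 7 of them positive.

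Between the fractions the testis isoforms had negative fold changes, as did most of the nuclear genes, and their counterparts positive ones. All 4 testis isoforms were lower in round spermatids without overlap (16.4% of all genes), and none stayed so with the left-out libraries added back. Cyct was as above. The log2 fold changes were -0.75 for Cox7b2 (edgeR adjusted p = 0.0505), -0.52 for Cox8c (edgeR adjusted p = 0.0575) and -0.43 for Cox6b2 (edgeR adjusted p = 0.0334, below the required fold). Only Cyct was called by edgeR, while DESeq2 called Cox7b2 (log2 fold change -0.77) and Cox8c (-0.55) as well. All 4 counterparts had a positive fold change, from 0.05 for Cox6b1 through 0.43 for Cycs and 0.63 for Cox8a (edgeR adjusted p = 0.0653) to Cox7b. The sign for Cox6b1 turned to -0.09 with the left-out libraries added back. No test was made of the testis isoforms as a group against the counterparts. The call of Cyct was lost without wild-type spermatocyte replicate 4 or round spermatid replicate 2 (log2 fold change -0.61 and -0.62), and that of Ndufa13 without spermatocyte replicate 4 or 5 or round spermatid replicate 1 or 4 (0.56 to 0.67).

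Without wild-type spermatocyte replicate 5, 16 respiratory genes were called lower and 1 higher (14.7% and 16.8% of all genes). Without heterozygous spermatocyte replicate 3, which belongs to neither group compared, 17 nuclear genes were called lower and 4 higher (14.7% and 13.4% of all genes). Cox7b2 (edgeR adjusted p = 0.000252) and Cox8c (edgeR adjusted p = 0.00194) were then among the lower ones, and the ATP synthase genes Atp5g1, which encodes the proton-carrying c subunit, and Atp5mpl, a small subunit, among the higher ones.

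The second comparison asked what the Ago413 deletion does to these genes in spermatocytes. No nuclear or mitochondrial gene was called between null and wild-type spermatocytes by edgeR, where 0.0411% of all 19450 genes tested were called. The nuclear genes nevertheless sat low in the null libraries. All null libraries were below all used wild-type libraries for 58 of 92 nuclear genes (14.8% of all genes), and above them for 1, Cox7b (13.2% of all genes). The median log2 fold change was -0.37 against -0.03 over all genes, with 9 of 92 positive. At an unadjusted p under 0.05, 23 nuclear genes were lower (14.5% of all genes) and none higher (15.9% of all genes), and DESeq2 called 10 lower (6.48% of all genes) and none higher (9.08% of all genes). Adding back the wild-type library that the labels call an outlier left 7 of 92 genes without overlap (4.81% of all genes). With the heterozygous spermatocyte library so labelled added to the fit as well, the median was -0.26.

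The genes lower in every null library came from each complex. They were 24 of 38 complex I genes, 4 of 8 assembly factors, 3 of 4 complex II genes, 7 of 9 complex III genes, 1 of 2 cytochromes c, 9 of 14 complex IV genes and 10 of 17 ATP synthase genes. The 7 that stayed below the added wild-type library as well were Ndufs7 and Ndufa10 of complex I, Ndufaf1, Sdhb, the complex III subunits Uqcrfs1 (the Rieske iron-sulfur protein) and Uqcr11, and Atp5o of the ATP synthase stalk.

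Sdhc (chr1:171127165-171150603, minus strand) showed the pattern in complex II. It was at 74.75, 70.54, 69.28 and 44.4 CPM in the wild-type spermatocytes and at 28.87, 37.62 and 32.06 CPM in the null spermatocytes. Sdhd was at 55.04, 58.33, 50.33 and 35.87 CPM in the wild type and at 16.86, 28.24 and 25.98 CPM in the null. Both were free of overlap, replicate 5 being the lowest wild-type library for each, and the left-out wild-type library, with 33.91 and 25.76 CPM, lay inside the null range. The log2 fold changes were -0.96 (SE 0.20) for Sdhc and -1.06 (SE 0.22) for Sdhd, with an edgeR adjusted p of 0.0599 for each, just outside the threshold. DESeq2 called both (adjusted p = 0.00164 and 0.00178).

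The other genes with the smallest p came from complex I, its assembly and the ATP synthase, each with the same edgeR adjusted p of 0.0599. Ndufc2 was at 9.83, 15.93 and 10.87 CPM in the null, each below the lowest wild-type library at 16.96 (log2 fold change -1.19, SE 0.27). Atp5g3, the third gene for the c subunit of the rotor, was at 17.88, 20.37 and 15.7 CPM in the null and at 44.29, 36.76, 46.88 and 21.76 CPM in the wild type (log2 fold change -1.03, SE 0.24). Ndufaf3 was at 173.8, 278.1 and 220.2 CPM in the null and at 432.2, 395.5, 379.4 and 302.9 CPM in the wild type (log2 fold change -0.74, SE 0.17). In all of them the null libraries were below the used wild-type ones, of which replicate 5 lay nearest to them. The left-out wild-type library lay inside the null range for each, at 10.77 CPM for Ndufc2, 19.26 CPM for Atp5g3 and 192.2 CPM for Ndufaf3. Leaving out wild-type replicate 5 in turn gave 14 called genes among all 110, all lower (9.71% of all genes).

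The testis isoforms followed the rest of the set in 3 of 4 cases. Cox8c was at 475.8, 447.5, 435 and 357.7 CPM in the wild type and at 237.8, 294.8 and 266.9 CPM in the null (log2 fold change -0.67, edgeR adjusted p = 0.0914). Cyct was at 48.71, 58.98 and 50.21 CPM in the null, below its lowest wild-type library at 75.73 (log2 fold change -0.78, SE 0.23, edgeR adjusted p = 0.0686, DESeq2 adjusted p = 0.0316). Cox7b2 was also free of overlap (log2 fold change -0.51, edgeR adjusted p = 0.32). The lack of overlap ended for all 3 with the left-out wild-type library, which was at 259.1 CPM for Cox8c and 50.55 CPM for Cyct, inside the null range, and at 94.5 CPM for Cox7b2, below every null library. Cox6b2 overlapped, with 198.7, 215 and 228.6 CPM in the null against 201.9 to 244.7 CPM (log2 fold change -0.04), and its sign turned to 0.09 with the left-out libraries added back. The somatic counterparts had a median log2 fold change of -0.05: Cycs -0.27, Cox6b1 -0.20, Cox8a 0.09 and Cox7b 0.52 (edgeR adjusted p = 0.372).

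Without heterozygous spermatocyte replicate 3 the same comparison called 23 nuclear genes lower and none higher, against 9.35% of all genes called lower. They were 10 complex I genes, 2 assembly factors, 2 complex II genes, 1 complex III gene, Cyct, 4 complex IV genes and 3 ATP synthase genes, with edgeR adjusted p from 0.0252 to 0.041. The largest falls were by 1.21 for Ndufc2, by 1.08 for Ndufb9, by 1.07 for Sdhd and by 1.05 for Atp5g3, on the log2 scale. Cox8c (-0.68), Cox4i1 (-0.62), Cox6c (-0.57) and Cox7b2 (-0.52) were the complex IV genes. That library belongs to neither group, and its removal changes the estimate of the spread, the scaling and the 19314 genes tested.

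**Figure D3:**
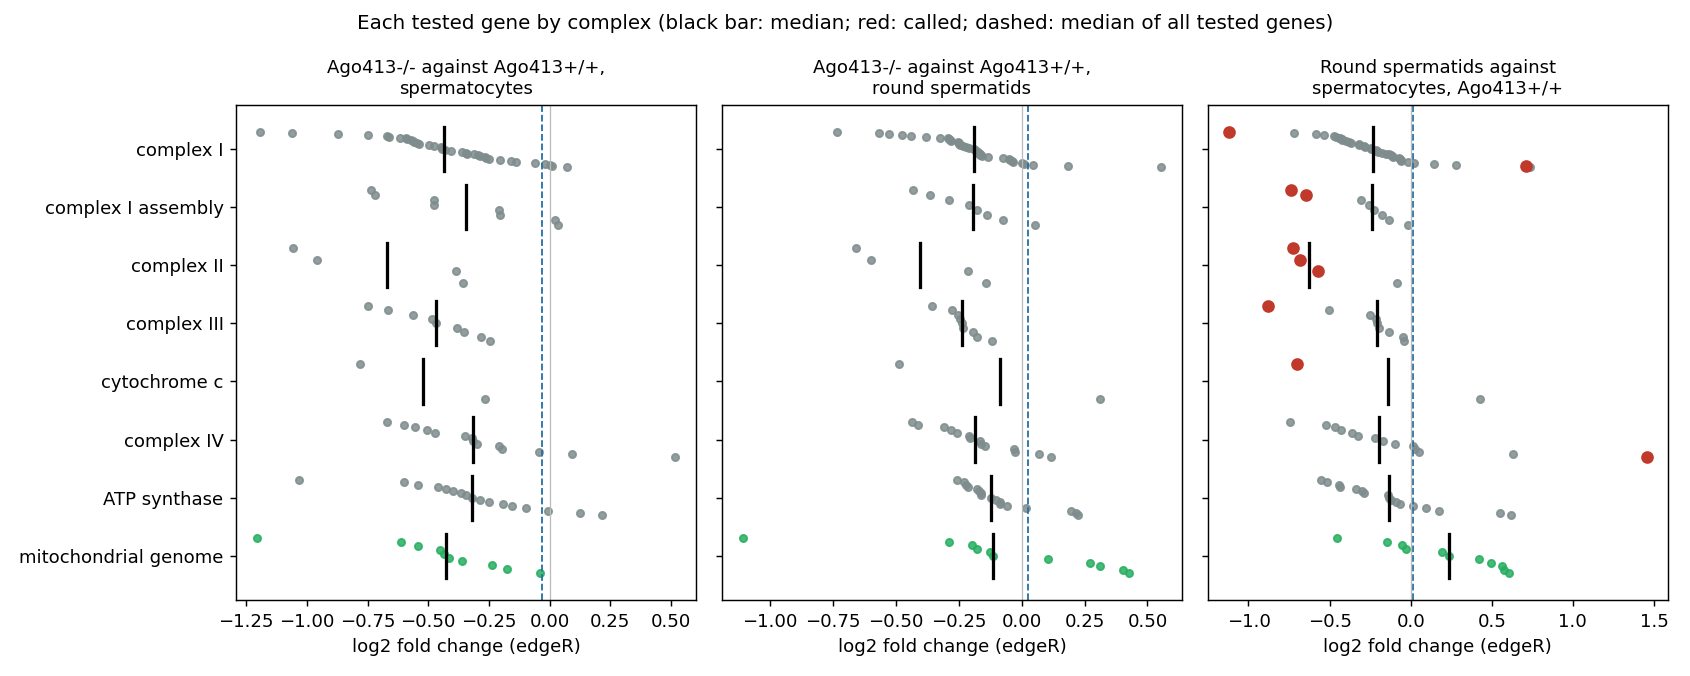
Log2 fold change of every tested respiratory gene by complex in 3 comparisons, with the complex median (black bar), genes called by edgeR (red) and the median of all genes tested (dashed line). In spermatocytes the medians of the null against the wild type run from -0.67 for complex II to -0.32 for complex IV and the ATP synthase with no call, and in round spermatids against spermatocytes the 8 lower calls include 3 complex II genes.

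Summed levels of cell type markers differed as well in the null spermatocytes. The 10 spermatocyte markers summed to 590.2 to 873.7 CPM in the null and 892.3 to 1855 CPM in the wild type, with 8 of 10 negative, none called by edgeR and 5 called lower by DESeq2. The 10 round spermatid markers summed to 1633 to 1885 CPM in the null against 891.6 to 1618 CPM, with 10 of 10 positive, none called by edgeR and 4 called higher by DESeq2. Elongating spermatid markers overlapped (6401 to 17410 CPM against 5336 to 11560 CPM), and the 10 Sertoli cell markers were all negative (109.7 to 195.2 CPM against 183.3 to 471.9 CPM). The 8 spermatogonial markers summed to 47.59 to 78.74 CPM against 39.67 to 50.37 CPM (80 CPM in the left-out wild-type library), with 6 of 8 positive, none called by edgeR and 2 called higher by DESeq2. The part of these shifts in the levels of the respiratory genes was not tested.

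The mitochondrial genes gave no call in null spermatocytes either. All 10 tested had a negative log2 fold change (median -0.43), none was free of overlap, and the smallest edgeR adjusted p was 0.266. mt-Co1 was at 2863, 1999 and 2147 CPM in the null and at 3060, 2020, 4321 and 2813 CPM in the wild type, so the groups overlapped.

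In round spermatids the null again gave no call among the genes (0.0518% of all 19310 genes tested were called). The median log2 fold change of the nuclear genes was -0.18 against 0.03 over all genes, with 13 of 92 positive. The null libraries lay below all wild-type libraries for 9 of 92 nuclear genes (10.3% of all genes), which is near the background, and for 5 (7.35% of all genes) with the left-out library added back. At an unadjusted p under 0.05, 20 were lower (11.3% of all genes) and 1, Ndufa4, was higher (8.01% of all genes). DESeq2 called 3 nuclear genes lower (2% of all genes), Sdhc, Sdhd and the complex I subunit Ndufb3, and 1 mitochondrial gene, mt-Nd6.

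mt-Nd6, a complex I subunit, had the smallest p of all the respiratory genes in this comparison. It was at 18.9, 11.04 and 16.6 CPM in the wild type and at 5.86, 6.38, 8.75 and 8.06 CPM in the null. The groups did not overlap (log2 fold change -1.11, SE 0.21, edgeR adjusted p = 0.0667, DESeq2 adjusted p = 0.000437), but the left-out wild-type library, at 6.11 CPM, lay inside the null range. The heterozygous libraries were at 8.59, 11.55, 10.19 and 11.52 CPM. The strand setting of the deposited counts was not given in the sources used here, so reads from the other strand cannot be told apart from this gene's own.

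Among the nuclear genes, Sdhc, a membrane anchor of complex II, was at 47.35, 33.19 and 36.79 CPM in the wild type and 30.44, 22.38, 28.55 and 23.92 CPM in the null (log2 fold change -0.60, edgeR adjusted p = 0.09). Cox8c was at 320.2, 256.3 and 321.6 CPM in the wild type and 251.8, 209.3, 216.7 and 225.2 CPM in the null (log2 fold change -0.43, edgeR adjusted p = 0.101). For Sdhc and Cox8c the null was below the wild type without overlap, by a narrow margin at wild-type replicate 2. The left-out library, at 29.59 CPM, lay inside the null range for Sdhc and, at 258.3 CPM, above it for Cox8c. Ndufaf3 (log2 fold change -0.43) and Cyct (-0.49) had edgeR adjusted p of 0.108 and 0.116. Spermatocyte markers in these fractions summed to 394.7 to 537.7 CPM in the null and 581.8 to 715.8 CPM in the wild type, and 9 of 10 macrophage markers were positive (median log2 fold change 1.02, summed to 41.13 to 78.22 CPM in the null and 36.24 to 56.18 CPM in the wild type). Their part was not tested.

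Whether the effect of the deletion differs between the fractions was tested as an interaction in 1 model over all 21 libraries. No gene was called, of the respiratory genes or of all 20404 tested (0%), and the smallest edgeR adjusted p over all genes was 0.807. DESeq2 called none either. The difference was positive for 87 of 92 nuclear genes (54.7% of all genes), with a median of 0.26 on the log2 scale against 0.05 over all genes. The median was 0.147 to 0.319 when each library was left out in turn, the lowest value without null round spermatid replicate 1. At an unadjusted p under 0.05 5 nuclear genes were higher (Atp5g3, Ndufa1, Ndufa3, Ndufb9 and Ndufc2) and none lower, against 3.28% of all genes higher and 2.67% lower, so the count of higher genes is near the background. A lower level in null spermatocytes than in null round spermatids, each relative to its wild type, was therefore not detectable for any single gene.

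The X chromosome is silenced in pachytene spermatocytes and holds 3 of the genes. Cox7b was at 0.699, 0.802 and 0.666 CPM in null spermatocytes, above every used wild-type library, though the left-out one was at 0.679 CPM. The complex I genes Ndufb11 and Ndufa1 overlapped between null and wild-type spermatocytes, with log2 fold changes of 0.004 and -0.66. Ndufb11 changed sign without some libraries and under some other settings. In wild-type round spermatids against spermatocytes Ndufb11 had a log2 fold change of 0.74 (edgeR adjusted p = 0.0521) and Ndufa1 of -0.07. Ndufb11 shares 29% of its words, mostly with a processed pseudogene.

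The heterozygous animals were compared with the same wild-type libraries as the null, so the comparisons are not independent. In spermatocytes no gene was called by edgeR (0.0257% of all genes) and DESeq2 called 3 lower (2.79% of all genes). The median log2 fold change of the nuclear genes was 0.04, with 51 of 92 positive, and it ranged from -0.35 to 0.17 when each library was left out in turn. The lowest value came without heterozygous replicate 3, where again no gene was called lower (0% of all genes). Without wild-type replicate 5, 7 respiratory genes were called lower and 1 higher (4.66% and 10.8% of all genes). Cox8c shows how far the heterozygous libraries were apart: it was at 256.6, 256.3 and 542.3 CPM in the heterozygous spermatocytes, the first and second libraries in the null range and the third above every wild-type library. The spermatogonial markers summed to 69 to 91.77 CPM in these libraries, above the used wild-type ones, with 7 of 8 positive and 1, Stra8, called higher by edgeR. Their part was not tested.

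In round spermatids the heterozygous libraries gave no call (0.0207% of all genes) and a median of -0.22 against 0.01 over all genes, with 4 of 92 nuclear genes positive. Between null and heterozygous libraries no gene was called in spermatocytes (0.00514% of all genes), where the median was -0.42 with all libraries used and -0.04 without heterozygous replicate 3, or in round spermatids (0.00518% of all genes), where it was 0.02.

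In the null genotype, 6 nuclear genes were called higher in round spermatids than in spermatocytes (11.7% of all genes) and none lower (5.42% of all genes). They were Ndufa13 (log2 fold change 1.12), Cox7b (1.10), Cycs (1.08), Ndufb11 (0.84), Ndufa4 (0.83) and Atp5g1 (0.71). mt-Co1 (0.92) and mt-Nd1 (0.78) were called higher as well. The count of called genes in the null, 8 with all libraries (17.1% of all genes in either direction), was 1 without spermatocyte replicate 2 (10.7%), spermatocyte replicate 3 (6.15%) or round spermatid replicate 1 (10.6%), 3 without round spermatid replicate 2 (11.8%) and 4 without replicate 3 (15.5%). In heterozygous animals none was called higher (7.07% of all genes) and 11 were called lower (1.82% of all genes), among them Cyct and Cox7b2, and none was called without spermatocyte replicate 3. Cycs was at 12.43, 8.16 and 6.16 CPM in null spermatocytes and at 31.63, 13.06, 18.95 and 11.63 CPM in null round spermatids, so its libraries overlapped, and round spermatid replicate 1 was the highest.

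**Figure D4:**
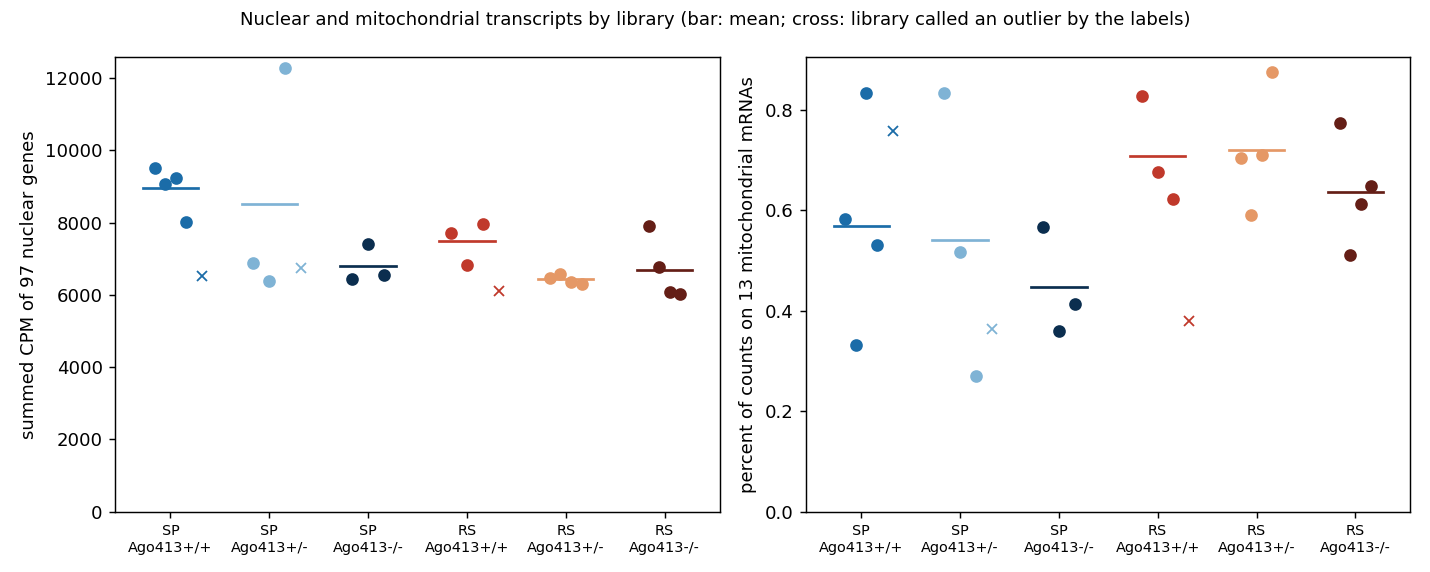
Summed level of the 97 nuclear genes (left, CPM) and percent of counts on the 13 mitochondrial mRNAs (right) in every library by fraction and genotype, with group means as bars and crosses for the 3 libraries that the labels call outliers. Null spermatocytes lie at 6437 to 7400 CPM and used wild-type spermatocytes at 8006 to 9503 CPM, with the left-out wild-type library at 6528 CPM and heterozygous replicate 3 at 12260 CPM.

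Summed over the 97 nuclear genes, the level was 8952 ± 656 CPM (SD, n = 4) in wild-type spermatocytes, 8509 ± 3258 (SD, n = 3) in the heterozygous ones and 6799 ± 524 (SD, n = 3) in the null ones. In round spermatids it was 7500 ± 596 (SD, n = 3), 6426 ± 128 (SD, n = 4) and 6694 ± 877 CPM (SD, n = 4) in the same order. Null and used wild-type libraries did not overlap in spermatocytes and overlapped in round spermatids, where null replicate 1 reached 7902 CPM. That library had the largest shift towards short genes among the round spermatid libraries used (0.51 against -0.28 to 0.28 in the others), and its part was not tested. The heterozygous round spermatid libraries, at 6291 to 6589 CPM, lay below the used wild-type ones, at 6826 to 7958 CPM, and above the left-out one at 6120 CPM.

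Other genes of mitochondrial metabolism, outside the symbols chosen, were counted in the same fits. In null spermatocytes no gene of 4 lists was called by edgeR. The median log2 fold change was -0.45 over 32 assembly factors that the symbols did not take in. DESeq2 called 8 of these lower and 1 higher (6.48% and 9.08% of all genes). The median was -0.47 over 7 carriers and channels of adenine nucleotides and phosphate. It was -0.24 over 18 genes of the Krebs cycle and pyruvate dehydrogenase, and -0.23 over 18 genes of mitochondrial transcription and RNA maintenance. In wild-type round spermatids against spermatocytes edgeR called 6 of the 32 assembly factors lower and 1 higher, 1 of the 7 carriers lower, 3 of the 18 Krebs cycle genes lower and 2 higher, and 5 of the 18 transcription and maintenance genes lower and 1 higher. Of all genes, 11.4% were called lower and 12.7% higher.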

How the data were processed

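The authors trimmed reads of directional poly(A) libraries with Trim Galore, mapped them with STAR to mm10 and deposited raw counts of reads per gene. The annotation release and the strand setting were not given in the sources used here. All 55536 IDs matched GENCODE M21, and no column was left without a sample. Groups follow the labels, and 3 libraries marked as outliers in the labels entered only the alternatives and the figure of library sums. The genes and lists were chosen with earlier results of these data known.

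Genes with at least 10 counts in 3 or more libraries of a fit were tested with edgeR 4.0.16 (quasi-likelihood test, TMM scaling, R 4.3.3) and Benjamini-Hochberg adjustment, each fraction in 1 fit of the 3 genotypes, and the fractions in 1 fit of 6 groups over 21 libraries. A call needed an adjusted p below 0.05 and an absolute log2 fold change above 0.5. CPM values are TMM-scaled. DESeq2 1.42.0 was an alternative. The script was tested on simulated data with genes changed by 1 on the log2 scale. There edgeR called 44% of them in null against wild-type spermatocytes and 94% in round spermatids. Between the wild-type fractions it called 71%. A lack of calls in spermatocytes can thus miss changes of this size. Nothing says that libraries of a group came from separate pools of animals, so p-values measure the spread between these libraries, which may be technical in part. No 2 libraries of a group were alike within sampling noise. Lengths are of merged exons. Words of 31 bases were looked up in all M21 transcripts, and start windows and upstream sequences come from RefSeq.

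Genes named with values were the testis isoforms, their somatic counterparts, the mitochondrial and X-linked genes, the 3 highest nuclear genes per kilobase in each fraction, and in each main comparison the 5 called genes with the largest change in each direction at a mean of 10 CPM or more, or the 5 with the smallest p where fewer than 3 were called. A gene that this rule takes in is not reported here. Cox7b as the 1 gene without overlap above the wild type, Sdha, Sdhd, Ndufa4, the genes of the interaction and those called in added alternatives or other fraction comparisons were named after their values were seen.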

Additional observations from a re-analysis of the deposited data

Results flagged for a closer look

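Of 108 group values of 4 libraries tested with Dixon's criterion, 6 had 1 library far from the other 3, and chance alone marks about 1 in 20 such groups. Ndufaf7 was at 45.22 CPM in wild-type spermatocyte replicate 5 and at 58.93, 60.31 and 61.11 CPM in the others. Ndufc2 was at 12.62 CPM in heterozygous round spermatid replicate 2 and at 9.05, 9.3 and 9.33 CPM in the others. Null round spermatid replicate 1 was the highest library for Cyct (50.35 CPM against 37.66, 37.75 and 38.48), mt-Co1 (6272 CPM against 3628, 3755 and 3995) and mt-Nd3 (0.617 CPM against 0.202, 0.245 and 0.271). mt-Co2 was at 1.37 CPM in null round spermatid replicate 3 and at 3.14, 3.25 and 3.5 CPM in the others.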

How the results depend on the processing

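The limits are the few libraries per group, the 3 libraries left out, the short-gene shift of heterozygous spermatocyte replicate 3 and, to a smaller extent, null round spermatid replicate 1, and counts of uniquely mapped reads for genes with pseudogene copies. Counts of respiratory genes called changed by over 1.5 times as follows, each with the percent of all genes called in either direction under the same setting, and the cause was not tested. In null against wild-type spermatocytes (0 called, 0.0411%) DESeq2 called 10 (15.6%), no filter 14 (7.61%), only the groups compared 15 (6.93%) and leaving out each library 0 to 23. In round spermatids against spermatocytes of the wild type (10 called, 24.2%) DESeq2 called 17 (26.7%), no filter 16 (12.6%), only the groups compared 16 (24.3%), the left-out libraries added back 0 (0%), and leaving out each library 8 to 21. In the heterozygous animals (11 called, 8.89%) the counts were 19 with DESeq2 (11.2%), 28 with no filter (5.83%), 0 with only the groups compared (2.69%), 0 with the libraries added back (0%), 0 with consecutive library numbers as pairs (5.48%) and 0 to 41 without each library. They were 29, 41 and 0 without spermatocyte replicates 1, 2 and 3 (7.94%, 11.5% and 5.1%), 1, 3 and 1 without round spermatid replicates 1, 3 and 4 (4.72%, 7.99% and 4.72%), and 7 without wild-type round spermatid replicate 1 or 4 or null replicate 2 (8.15% to 8.39%). In the null (8 called, 17.1%) they were 5 with DESeq2 size factors (17%), 3 with the libraries added back (11.1%) and 1 to 10 without each library. Heterozygous against wild-type spermatocytes (0 called, 0.0257%) gave 3 with DESeq2 (6.31%), 6 with no filter (4.3%) and 0 to 8 without each library, null against heterozygous spermatocytes (0 called, 0.00514%) 2 with no filter (0.0871%), and null against wild-type round spermatids (0 called, 0.0518%) 4 with DESeq2 (3.64%) and 1 with no filter (0.7%). Without TMM the summed nuclear level was 7437 CPM in null spermatocytes and 6027 CPM in heterozygous round spermatids. A term for library number above 60 left the counts of calls in the comparisons within a fraction at 0, from where they could not fall. Among wild-type spermatocytes, replicate 5 is numbered 78 and the left-out replicate 3 is numbered 72, the others 30, 36 and 42. The null spermatocyte libraries are numbered 54, 84 and 90. The part of library number in the levels was not tested.

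The replicate block, which takes same-numbered libraries as pairs, gave 5 calls in null against wild-type spermatocytes (3.53% of all genes), 16 in round spermatids against spermatocytes of the wild type (30.3%) and 4 in the heterozygous animals (8.61%), and turned Ndufb11 in null spermatocytes to -0.15. Between the wild-type fractions it lost the call of Ndufa13 (log2 fold change 0.64) and gained that of Cox8c (-0.60). The labels do not say that the numbers pair libraries. Deviations correlated above 0.1 in 7 of 17 same-numbered pairs within a fraction (median 0.072) and in 22 of 56 pairs with other replicate numbers (median 0.016). Libraries of different fractions with consecutive library numbers correlated above 0.1 in 8 of 9 pairs (median 0.328), against 5 of 27 pairs with other numbers (median -0.107), which is a hint from the data and not from the labels. With them as pairs 13 genes were called in the wild type (24.2% of all genes) and 7 in the null (15.1%), and Cox6b2 (-0.50), Cox7b2 (-0.80) and Ndufb11 (0.90) were then called in the wild type.

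Some signs turned. Without a filter Cox6b2 and Cox6b1 in null round spermatids were at 0.0133 and 0.010. With the left-out libraries added back Cox6b2 and Ndufb11 in null spermatocytes were at 0.0947 and -0.000812, Cox6b1 in null round spermatids at 0.0602 and Cox6b1 between fractions at -0.0878, and with only the groups compared Cox6b2 in null spermatocytes was at 0.000366. Leaving out each library in turn gave, in null spermatocytes, -0.089 to 0.0504 for Cox6b2, -0.221 to 0.272 for Cox8a and -0.327 to 0.237 for Ndufb11. In null round spermatids it gave -0.0929 to 0.0195 for Cox6b2, -0.0201 to 0.464 for Cycs, -0.143 to 0.0573 for Cox6b1, -0.0681 to 0.165 for Cox8a, -0.0806 to 0.322 for Ndufa1 and -0.113 to 0.172 for Ndufb11. Between the fractions of the wild type it gave -0.0167 to 0.135 for Cox6b1 and -0.27 to 0.239 for Ndufa1.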
